A study of Mus musculus with 8 samples.

Results

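The 150 genes described here had a larger share of their reads in introns in Nampt-cKO skin than in control skin. They were taken out of 36333 genes in the deposited table. A gene was eligible if it had at least 500 gene reads in each of the 8 libraries, which 9388 genes had. The intron share is the number of intron reads divided by all reads of the gene. In 598 eligible genes (6.37%) the lowest share among the Nampt-cKO libraries was above the highest share among the controls, and the 150 genes with the largest difference of the group means were kept as the members. The opposite separation, every Nampt-cKO share below every control share, was found in 584 eligible genes (6.22%), so the number of separated genes alone did not favour a raised share. The members were therefore chosen on the contrast between the groups, and their shares, exon reads and intron reads in that contrast are given below as a description without a test.

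Both groups were 8-week-old male C57BL/6J mice with floxed Nampt alleles. The Nampt-cKO mice (Nampt flox/flox; KRT5-CreERT2+, n = 4) carried a tamoxifen-dependent Cre recombinase under the keratin 5 promoter and received tamoxifen at 100 μg/g body weight daily for 5 days. The control mice (Nampt flox/flox, n = 4) are labelled without the Cre transgene, so Nampt loss and the presence of CreERT2 cannot be told apart. Tamoxifen stands in the labels of the Nampt-cKO mice only, while the methods of the study describe it for both groups in another experiment and its time line for both groups, so whether these control mice received it is not certain. RNA was taken from whole skin on Day 19 and poly-A selected. Keratin 5 drives recombination in basal keratinocytes and their progeny, whereas dermal, fat, muscle and immune cells in the same sample keep Nampt.

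Introns are removed from a primary transcript by the spliceosome, usually while the polymerase is still moving along the gene. Reads inside an annotated intron can come from transcripts that are not yet spliced, from introns that stay in the polyadenylated RNA, from an exon or a start site that the annotation lacks, or from another transcript that crosses the intron. The share rises when intron reads accumulate and also when exon reads are lost while intron reads stay, and the exon and intron reads are therefore given separately below.

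The libraries held 47185858 to 61735674 gene reads in Nampt-cKO skin and 46623626 to 60959242 in control skin. Exon reads of Nampt, the targeted gene, were 1746, 1818, 3986 and 1905 in the Nampt-cKO libraries and 3239, 3977, 3677 and 2963 in the control libraries. The library labelled Nampt-cKO replicate 3 thus had as many as the controls, and the difference over all libraries was -0.53 ± 0.24 (log2, SE) with an adjusted p of 0.0974 in edgeR's quasi-likelihood test. These reads cover the whole gene and all cells of the skin, so they check the epidermal deletion only weakly. Cell type markers also differed between the groups. By edgeR at an adjusted p of 0.05, exon reads of 18 of 22 markers of T cells and dendritic cells were lower, with a summed level of 313 to 674 CPM (exon reads scaled to library size) in Nampt-cKO skin and 1722 to 2594 in control skin, and 16 of 20 stress keratin and wound genes were higher (8874 to 21261 against 2093 to 2283). Of the 24 keratinocyte markers, all of them detected, 6 were higher and 6 were lower (37187 to 50563 against 49325 to 54344). Of 46 epidermal differentiation genes, 25 were lower and 9 higher (8408 to 12062 against 20388 to 21698), and 12 of 13 tested neutrophil markers were higher (158 to 954 against 62.4 to 83.8). Among all genes tested, 23.8% were called higher and 22.0% lower. The part of these shifts, and of the mitochondrial percentage given next, in the intron shares was not tested, and in whole skin fewer cells of a type and less RNA per cell cannot be told apart.

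Over whole libraries the intron share was 14.4% ± 1.66 in Nampt-cKO skin and 11.4% ± 0.430 in control skin (SD, n = 4 each), and the groups did not overlap. Mitochondrial reads carried that difference. The 13 mitochondrial protein-coding genes, such as COX1 and ND1, have an exon length of 0 in the table, so all of their reads were entered as intron reads although these genes have no introns. Mitochondrial features took 5.92, 5.68, 6.82 and 8.18% of gene reads in the Nampt-cKO libraries and 2.99, 2.90, 2.74 and 2.73% in the control libraries. Without them the library-wide share was 8.43% ± 0.711 in Nampt-cKO skin and 8.85% ± 0.358 in control skin, and the groups overlapped. The median share of the members was 23.0 to 26.1% in Nampt-cKO libraries and 14.2 to 15.8% in control libraries, while that of the other eligible genes was 7.38 to 8.90% and 7.59 to 8.56%. No mitochondrial gene was a member.

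**Figure D1:**
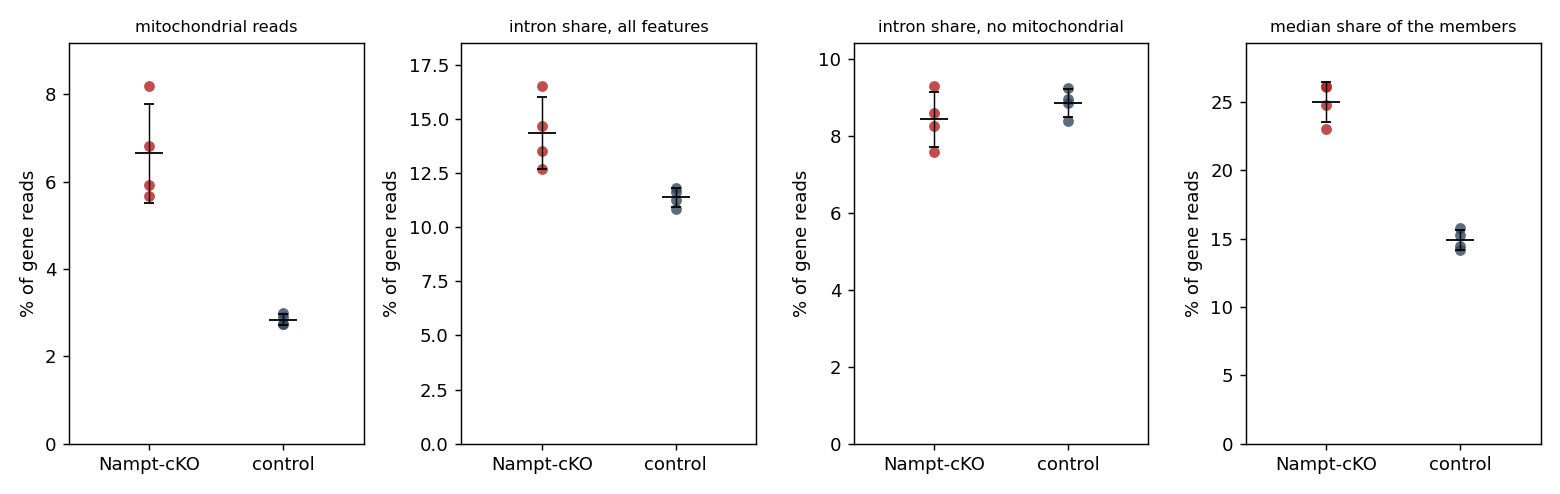
Share of gene reads per library (%) for mitochondrial features, for introns over all features, for introns without mitochondrial features, and the median intron share over the 150 members, with Nampt-cKO left of control. Points are libraries and bars the mean ± SD (n = 4); the intron share of all features separates the groups, 14.4% against 11.4%, and no longer does so without the mitochondrial features, 8.43% against 8.85%.

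The members ranged widely. The difference of the mean shares (Nampt-cKO minus control) was 5.49 to 54.9 percentage points with a median of 8.61, against a median of 0.07 in the other eligible genes. It exceeded 10 points in 65 members and 20 points in 17. In a test of the ratio of intron to exon reads across all eligible genes (edgeR's quasi-likelihood test, Benjamini-Hochberg adjustment), 2.26% of 9344 genes were called higher and 1.40% lower at an adjusted p of 0.05, and 77 members were among the higher ones, which repeats the choice of the members. Leaving out 1 library gave 37 to 101 members, with 37 without control replicate 1 or control replicate 3, 45 without control replicate 2, 44 without control replicate 4, and 101 without Nampt-cKO replicate 1. The widest 95% Wilson interval of a member's share in 1 library was ± 3.93 points and the median ± 1.72 points, for counting error only.

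Separating exon from intron reads divided the members into unlike groups. Intron reads, scaled to the exon reads of the library, were called higher in 78 members and lower in 15, beside 13.3% and 13.9% of all genes tested. All 150 members passed the filters on low counts. Exon reads were called higher in 23 members and lower in 70, beside 23.8% and 22.0% of all genes tested. In 42 members only intron reads were called, and they were higher. In another 42 only exon reads were called, and they were lower. Both were higher in 23, both were lower in 15, exon reads were lower with higher intron reads in 13, and neither was called in 15. A choice on the share favours these combinations, so the counts are not evidence about the members. The median log2 change was -0.35 for exon reads and 0.64 for intron reads of the members, beside 0.09 and 0.10 in the other eligible genes.

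**Figure D2:**
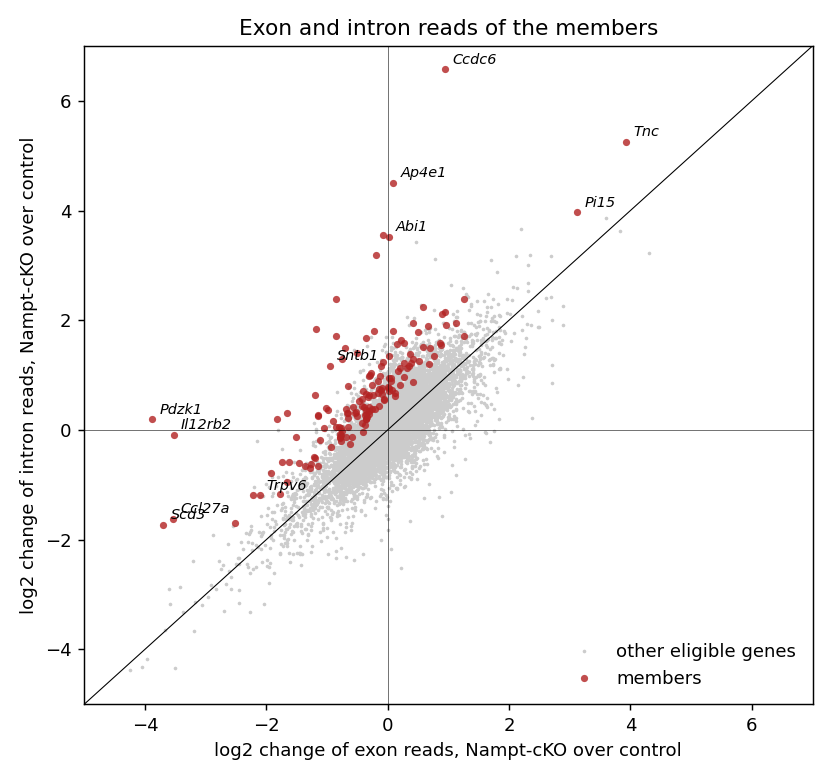
Log2 change of exon reads (x) and intron reads (y), Nampt-cKO over control, for the members in red and the other eligible genes in grey; the diagonal marks an equal change of both. Members lie above the diagonal through more intron reads (Ccdc6, 6.57), through fewer exon reads (Pdzk1, -3.88), or with both changed in 1 direction (Tnc, 3.93 and 5.25).

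The first group, with intron reads present in large excess, led the ranking, and exon reads of some of these genes were also called, higher or lower. Ccdc6 encodes a coiled-coil protein best known as a fusion partner of the RET kinase in thyroid cancer. Ccdc6 (chr10:70096878-70193200, GRCm38) had 13931, 12255, 8222 and 8344 intron reads in the Nampt-cKO libraries, against 122, 152, 102 and 79 in the control libraries. All 4 Nampt-cKO libraries were far above all controls. Intron reads made up 53.8% ± 6.96 of the reads of Ccdc6 in Nampt-cKO skin and 2.21% ± 0.633 in control skin (SD, n = 4 each). The log2 change was 6.57 ± 0.28 (SE) for its intron reads and 0.94 ± 0.25 for its exon reads, and Nampt-cKO replicate 1 had 16149 exon reads against 5893 to 8447 in the other Nampt-cKO libraries. Nearly all intron reads of Ccdc6 mapped to 1 place in the genome.

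Ap4e1, the epsilon subunit of the AP-4 adaptor complex that sorts cargo at the trans-Golgi network, had the largest difference of all (chr2:127008679-127069814). Its intron reads were 1622, 3559, 3640 and 4866 in Nampt-cKO skin, against 129, 216, 129 and 178 in control skin. Its exon reads were 2032, 1831, 1929 and 1362, against 1462, 2070, 1676 and 1637, and overlapped between the groups. The share of Ap4e1 was 63.5% ± 14.0 in Nampt-cKO skin and 8.63% ± 1.23 in control skin.

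Abi1 showed the same form at a higher level. It encodes a subunit of the WAVE complex, which starts branched actin networks. Abi1 had 21872, 17605, 26408 and 58801 intron reads in Nampt-cKO skin, against 2248, 3095, 1873 and 4745 in control skin, with a log2 change of 3.53 ± 0.45 for intron reads and 0.02 ± 0.11 for exon reads. Ankrd12, a nuclear ankyrin-repeat protein, had 7407, 10181, 14422 and 16884 intron reads in Nampt-cKO skin, against 1311, 1318, 1101 and 1933 in control skin. Nampt-cKO replicate 4 was the highest library for both genes and replicate 3 came next, so the size of the excess differed between the Nampt-cKO mice even where the groups did not overlap.

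Wiz, a zinc finger protein of the G9a/GLP histone methyltransferase complex, had 4375, 7446, 7341 and 4051 intron reads in Nampt-cKO skin, against 1515, 2194, 1921 and 1780 in control skin. Rbbp8 encodes CtIP, which starts the resection of DNA ends at double-strand breaks. It already had a share of 73.4% ± 4.82 in control skin, against 89.5% ± 4.24 in Nampt-cKO skin, and its intron reads were 12169, 11285, 16164 and 30266 in Nampt-cKO skin, against 7363, 5859, 5865 and 9467 in control skin. Myh10, the heavy chain of nonmuscle myosin IIB, had a share of 49.5% ± 12.6 in Nampt-cKO skin and 19.6% ± 5.30 in control skin, with 1230 intron reads in Nampt-cKO replicate 4 and 435 to 593 in the other Nampt-cKO libraries, against 174 to 352 in the controls. Slit2, a secreted ligand of Robo receptors, had 315, 294, 241 and 205 intron reads in Nampt-cKO skin, against 72, 118, 79 and 61 in control skin, and its exon reads changed by -0.84 ± 0.18 (log2). Ccdc171, a coiled-coil protein, had 1745, 1219, 1720 and 2989 intron reads in Nampt-cKO skin, against 478, 586, 521 and 726 in control skin. Exon reads of Wiz, Rbbp8, Myh10 and Ccdc171 were called lower. Their log2 changes were -0.36 ± 0.08, -0.50 ± 0.09, -0.70 ± 0.24 and -1.18 ± 0.33. Galnt11, which starts mucin-type O-glycosylation, showed a smaller excess, 1813, 1858, 1854 and 1296 intron reads, against 1079, 1488, 1321 and 1298. Galnt11 intron reads changed by 0.42 ± 0.15 and its exon reads by -0.56 ± 0.21.

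**Figure D3:**
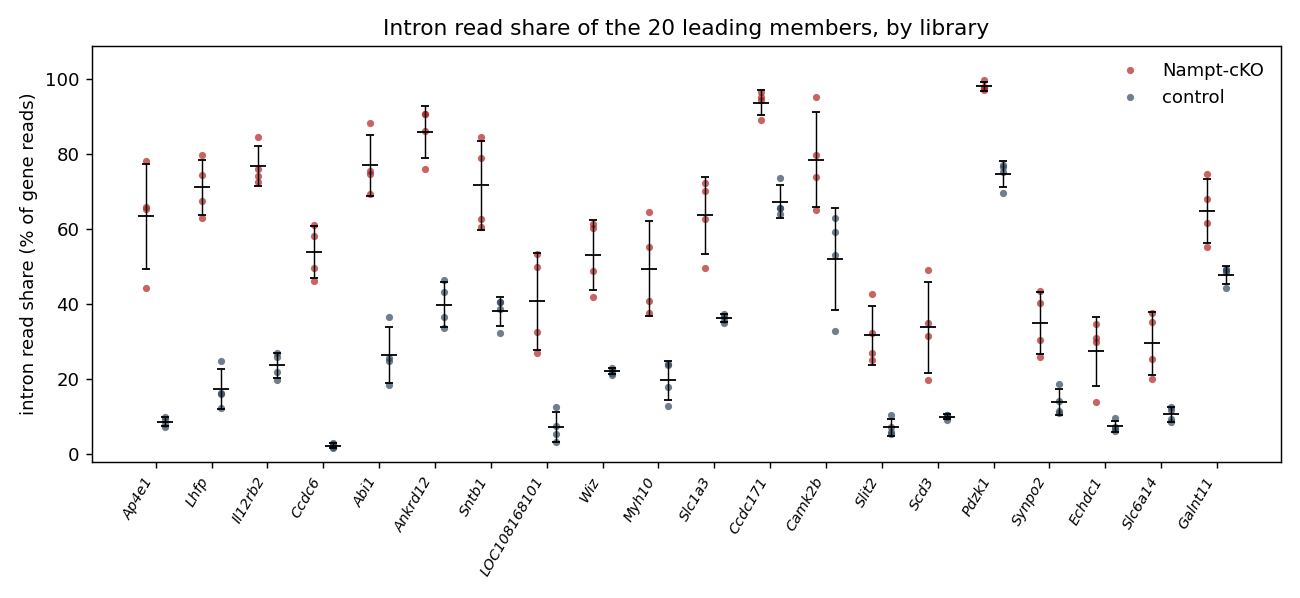
Intron read share (% of gene reads) of the 20 leading members, Nampt-cKO left of control within each gene. Points are libraries and bars the mean ± SD (n = 4); Ap4e1 stands at 63.5% against 8.63% and Pdzk1 at 98.1% against 74.7%.

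For some members the intron reads did not belong to a single place. Reads that map to several places are entered in the total counts. In 113 members at least 95% of the intron reads were unique, but in 10 members fewer than 50% were. Of the 9211 other eligible genes with intron reads, 299 had fewer than 50% unique. The lower quartile of the unique percentage was 95.3% in the members and 99.7% in the other eligible genes. Over unique reads alone, 135 members kept a share that was higher in every Nampt-cKO library and 15 did not. Lhfp, a tetraspan membrane protein, ranked second with shares of 71.1% ± 7.36 in Nampt-cKO skin and 17.4% ± 5.26 in control skin, yet only 18% of its intron reads were unique. Its unique intron reads were 413, 823, 1120 and 533 in Nampt-cKO skin, against 67, 137, 117 and 40 in control skin, and its difference was 26.0 points with unique reads and 53.8 with all reads.

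In Sntb1, which encodes beta-1-syntrophin of the dystrophin complex, the order of the groups turned round. Sntb1 had 1823, 3310, 2286 and 1169 intron reads in Nampt-cKO skin, against 891, 1290, 1074 and 605 in control skin. Its unique intron reads were 280, 183, 112 and 144 in Nampt-cKO skin, against 335, 460, 565 and 477 in control skin, and the difference of the share was -4.33 points with unique reads. The difference of LOC108168101 was -0.18 points with unique reads and 33.6 with all reads, and it had only 6 to 38 unique intron reads in a Nampt-cKO library, against 23 to 59 in a control library. Scd3 and Nupr1 had no unique intron read in any library, so their shares rest on reads not entered as unique. Both genes also lie wholly inside another gene of the table, Scd3 inside Pkd2l1 over 40729 bases and Nupr1 inside Gm39087 over 2225 bases. The part of the overlap and of gene copies was not tested. Ankrd12 was different: 28.4% of its intron reads were unique, and its difference was 43.6 points with unique reads and 46.0 with all reads.

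**Figure D4:**
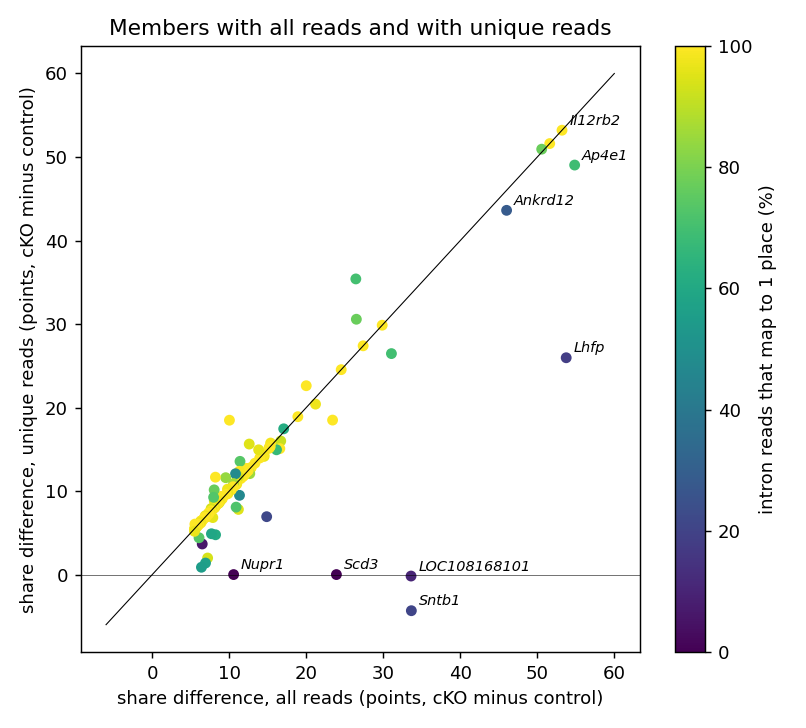
Difference of the intron share (points, Nampt-cKO minus control) of each member with all reads (x) and with unique reads (y); the diagonal marks equality and the colour the percentage of intron reads that map to 1 place. Most members lie near the diagonal, Lhfp falls to 26.0 points, and Sntb1 (-4.33), LOC108168101 (-0.18), Scd3 and Nupr1 lie at or under 0.

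In a second group the exon reads were fewer and the intron reads were not. Il12rb2, the signalling chain of the interleukin 12 receptor in T and NK cells, had 235, 122, 170 and 173 exon reads in Nampt-cKO skin, against 2031, 1957, 1898 and 2324 in control skin. Its intron reads were 678, 671, 540 and 458 in Nampt-cKO skin, against 573, 684, 702 and 573 in control skin. The exon reads were separated between the groups and the intron reads overlapped. The log2 change was -3.53 ± 0.21 (SE) for exon reads and -0.08 ± 0.16 for intron reads and the share was 76.9% ± 5.35 in Nampt-cKO skin and 23.7% ± 3.37 in control skin. The markers of T cells and dendritic cells moved with this gene, and their part was not tested.

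Pdzk1, a PDZ scaffold of membrane transporters, was the extreme case. Pdzk1 had 32, 20, 2 and 23 exon reads in Nampt-cKO skin, against 246, 330, 294 and 318 in control skin, beside 1038, 999, 941 and 950 intron reads, against 834, 1009, 961 and 730. Its lowest share in any library was 69.7%, in control replicate 4, so most reads counted for Pdzk1 lay outside its exons also in control skin. Pdzk1 overlaps Gpr89 by 2629 bases, and Gpr89 had 906 to 1408 exon reads in Nampt-cKO skin, against 876 to 1217 in control skin. Echdc1, an ethylmalonyl-CoA decarboxylase, had a log2 change of -1.82 ± 0.35 for exon reads and 0.20 ± 0.20 for intron reads. Echdc1 overlaps Rnf146 by 2486 bases, and Rnf146 had 3057 to 4195 exon reads in Nampt-cKO skin, against 4473 to 6138 in control skin. The part of these overlaps in the intron reads was not tested. Slc1a3, a glutamate transporter, had 230, 252, 1018 and 366 exon reads in Nampt-cKO skin, against 1001, 963, 1060 and 782 in control skin, and the library labelled Nampt-cKO replicate 3 lay within the control range. The exon change of Slc1a3 was -1.02 ± 0.43 and was not called. Synpo2, an actin-binding protein of muscle, and Slc6a14, an amino acid transporter of epithelia, had exon changes of -1.66 ± 0.36 and -1.19 ± 0.21.

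A further group of 15 members had fewer reads of both kinds, the exon reads more so. Ccl27a, a chemokine that keratinocytes make to draw skin-homing T cells, had 1497, 708, 403 and 548 exon reads in Nampt-cKO skin, against 8286, 9314, 9618 and 9547 in control skin. Its log2 change was -3.54 ± 0.33 for exon reads and -1.62 ± 0.29 for intron reads. Ccl27a has near-identical copies in the mouse genome, among which its reads can be split. Il34, the keratinocyte ligand that maintains Langerhans cells, changed by -2.52 ± 0.29 and -1.69 ± 0.24, and its unique shares were not separated between the groups. Trpv6, an epithelial calcium channel, changed by -2.11 ± 0.38 and -1.19 ± 0.21. Scd3, a sebaceous gland desaturase, changed by -3.70 ± 0.47 and -1.73 ± 0.24, with the limits on unique reads and overlap given above. Nlrc5, a transactivator of MHC class I genes, had 5650, 3673, 3001 and 3720 exon reads in Nampt-cKO skin, against 7774, 9934, 8879 and 9849 in control skin, and its intron change was -0.65 ± 0.15. In the sebaceous gland list, exon reads of 11 of 20 genes were lower and 2 were higher.

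The opposite combination was found in 23 members with more exon reads and still more intron reads. Tnc encodes tenascin-C, a matrix protein of wound edges. Tnc had 12202, 13473, 16026 and 11966 exon reads in Nampt-cKO skin, against 779, 834, 1082 and 928 in control skin, and 940, 1874, 1735 and 1332 intron reads, against 27, 59, 37 and 38. Its share was only 9.79% ± 2.07 in Nampt-cKO skin and 4.30% ± 1.56 in control skin, and its unique shares were not separated between the groups. Pi15, a secreted peptidase inhibitor, changed by 3.12 ± 0.28 for exon reads and 3.97 ± 0.38 for intron reads, and its share difference of 7.19 points was 1.98 with unique reads. Gpi1, the glycolytic glucose-6-phosphate isomerase, had 2808, 3574, 4779 and 2438 intron reads in Nampt-cKO skin, against 1047, 1410, 1153 and 1234 in control skin.

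Some members were host genes of small nucleolar RNAs, an annotation that the rule did not use. Small nucleolar RNAs (snoRNAs) guide chemical modification of ribosomal RNA and are cut out of introns of their host genes after splicing. In the GENCODE M21 annotation 7 of 146 members with a matching symbol (4.79%) held a snoRNA on their own strand, against 184 of 8988 other eligible genes (2.05%). They were 2410006H16Rik, Zfas1, Snhg6, Epb41l4aos, Snhg12, Taf1d and Rabggtb. The snoRNA sequences of 4 of these hosts are shown because they are RNAs that these introns encode, and only named Snord RNAs with both boxes are printed. Gm25878 and Gm23201 in Zfas1 and Snora16a, Snora44 and Snora61 in Snhg12 are left out. The snoRNAs of Epb41l4aos, Taf1d and Rabggtb are not printed either, among them Snord45c, which has both boxes, and Snord45b, which does not. The snoRNAs printed below are also counted as genes of their own, with 0 exon reads and 0 intron reads in every library. Where else within an intron the reads lay is not recorded in the table. The capitals mark box C (TGATGA) and box D (CTGA), the protein binding boxes of the C/D class, searched on the strand of the transcript only; the first TGATGA and the last CTGA after it are marked. Of 1507 snoRNA transcripts in GENCODE, 24.0% held a TGATGA followed by a CTGA, and of the 98 named Snord, 75.5%.
Snord49b in 2410006H16Rik (chr11:62603079-62603150, plus strand): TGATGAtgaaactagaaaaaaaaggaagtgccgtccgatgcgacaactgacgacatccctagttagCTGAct
Snord49a in 2410006H16Rik (chr11:62603450-62603521, plus strand): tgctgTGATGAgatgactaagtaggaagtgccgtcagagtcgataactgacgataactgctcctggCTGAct
Snord65 in 2410006H16Rik (chr11:62604515-62604586, plus strand): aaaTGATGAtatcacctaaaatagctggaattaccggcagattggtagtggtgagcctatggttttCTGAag
Snord12 in Zfas1 (chr2:167065276-167065365, plus strand): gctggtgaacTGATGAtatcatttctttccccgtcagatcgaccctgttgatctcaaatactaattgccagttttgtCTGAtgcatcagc
Snord87 in Snhg6 (chr1:9942463-9942549, minus strand): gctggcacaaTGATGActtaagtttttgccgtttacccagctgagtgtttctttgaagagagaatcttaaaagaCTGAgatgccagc
Snord99 in Snhg12 (chr4:132310691-132310764, plus strand): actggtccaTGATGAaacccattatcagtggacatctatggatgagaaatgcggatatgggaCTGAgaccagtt

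Zfas1, a noncoding host of 3 annotated snoRNAs, had 698, 775, 1329 and 431 intron reads in Nampt-cKO skin, against 161, 257, 154 and 174 in control skin. Its exon reads were 2234, 2588, 2218 and 1665, against 996, 1431, 1208 and 1136, so both kinds of reads were separated between the groups and the intron reads more so. 2410006H16Rik, which holds Snord49a, Snord49b and Snord65, had 315, 646, 588 and 388 intron reads in Nampt-cKO skin, against 101, 175, 107 and 191 in control skin, with a log2 change of 0.09 ± 0.12 for exon reads. Snhg6 had 426, 476, 727 and 649 intron reads in Nampt-cKO skin, against 146, 171, 143 and 170 in control skin. Taf1d, a subunit of the RNA polymerase I factor SL1, had 1624, 1744, 2223 and 2093, against 580, 704, 489 and 652. Exon reads of Taf1d were higher too, with a log2 change of 1.26 ± 0.11, against 1.72 ± 0.21 for its intron reads. Nearly all intron reads of these 4 hosts were unique. Epb41l4aos had 129, 121, 157 and 146 intron reads in Nampt-cKO skin, against 38, 54, 38 and 61 in control skin. Snhg12 had a share of 44.0% ± 4.73 in Nampt-cKO skin and 35.9% ± 1.76 in control skin. Rabggtb, a subunit of the Rab prenylating enzyme, had 23.0% ± 3.99 and 16.7% ± 0.879. Among these hosts, the log2 change of the ratio of intron to exon reads was smallest in Taf1d (0.45), Snhg12 (0.49) and Rabggtb (0.56).

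The count was also made over all hosts. It uses the rule's own separation in the same libraries, so it is a description and not a test of the hosts. Of 191 eligible genes with a snoRNA on their own strand, members included, 43 (22.5%) had a share above every control in every Nampt-cKO library and 6 (3.14%) had one below, against 6.03% and 6.28% of the other 9197 eligible genes. The differences were small, with a median of 0.43 points in the 191 hosts and 0.09 points in the other 9197 genes. In the list of known snoRNA hosts, 24 genes were eligible, 11 of them (45.8%) were higher in every Nampt-cKO library, none was lower, and 6 were called higher in the test over all genes. The median difference over these 24 genes was 0.87 points. Snhg6 and Snhg12 were the members in this list, and 5 of the 6 called genes are ribosomal protein genes with small shares. Rpl3, a ribosomal protein gene, had a share of 3.75% ± 0.940 in Nampt-cKO skin and 1.39% ± 0.198 in control skin. Rpl23 had 2.17% ± 0.524 and 0.826% ± 0.0762. Gas5, a noncoding host, had 9.11% ± 2.09 and 4.75% ± 0.739. These hosts were picked from the separated ones, and the test reads the same contrast as the rule, so its calls add no support to the count. Exon reads of ribosomal protein genes can be shared with pseudogenes, while the intron reads of Rpl3 and Rpl23 were unique. Snhg3 and Snhg15 went the other way in their means, by -2.80 and -2.96 points, with overlapping groups.

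**Figure D5:**
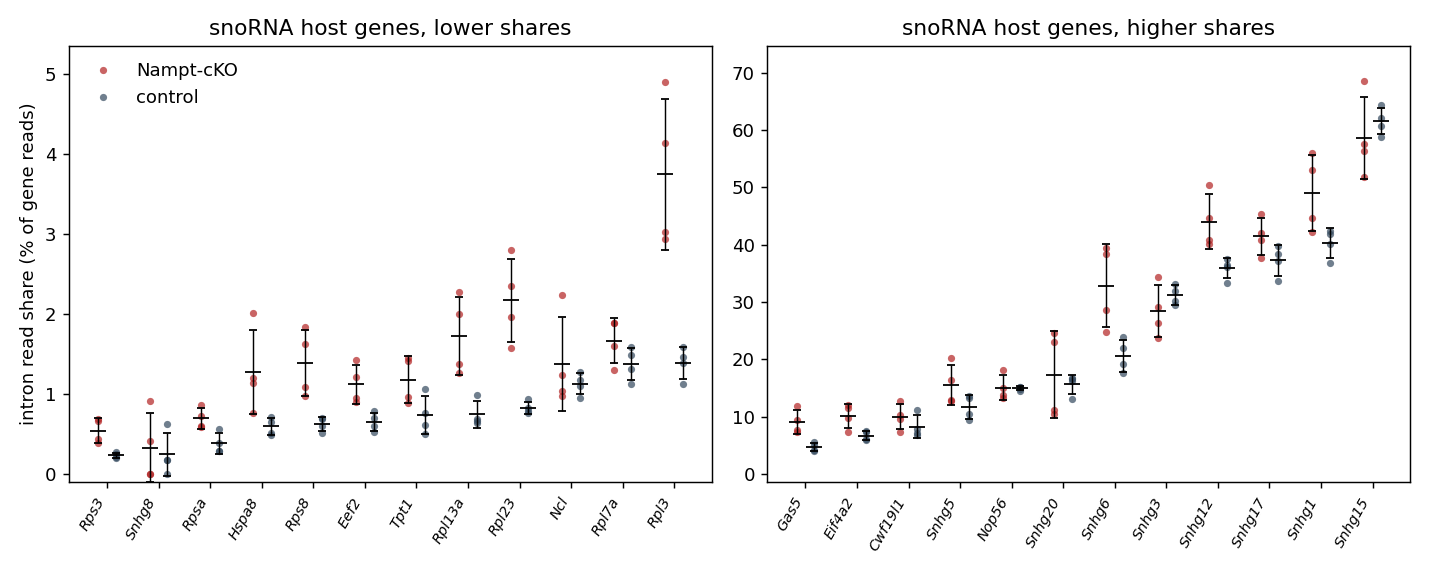
Intron read share (% of gene reads) of the 24 eligible genes in the list of snoRNA hosts, on 2 scales, Nampt-cKO left of control within each gene. Points are libraries and bars the mean ± SD (n = 4); in 11 genes, among them Rpl3 (3.75% against 1.39%) and Gas5 (9.11% against 4.75%), every Nampt-cKO library lay above every control.

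Hosts of microRNAs were also among the members, though at a rate nearer that of other genes. A microRNA annotated on the same strand lay within 12 of 146 members (8.22%), against 5.96% of the other eligible genes. Mature sequences from RefSeq (GRCm38.p6) are given for the hosts described here, with the seed, bases 2 to 8, in capitals. The miR-15a and miR-16 sequences share 1 seed, and the others each have their own.
mmu-miR-21a-5p in Vmp1 (chr11:86584120-86584141, minus strand): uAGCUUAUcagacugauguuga
mmu-miR-15a-5p in Dleu2 (chr14:61632075-61632096, minus strand): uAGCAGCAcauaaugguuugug
mmu-miR-16-5p in Dleu2 (chr14:61631936-61631957, minus strand): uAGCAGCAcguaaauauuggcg
mmu-miR-218-5p in Slit2 (chr5:48223966-48223986, plus strand): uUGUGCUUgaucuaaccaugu

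Vmp1 encodes an autophagy protein of the endoplasmic reticulum and ends where miR-21a, a microRNA of wounds and inflamed skin, is encoded. It had 1885, 2108, 3730 and 1788 intron reads in Nampt-cKO skin, against 493, 682, 645 and 701 in control skin, and 6662, 6979, 8803 and 5554 exon reads, against 2619, 3698, 3474 and 3408. Dleu2, the noncoding host of miR-15a and miR-16-1, behaved differently. Its exon reads were 306, 161, 193 and 228 in Nampt-cKO skin, against 385, 473, 513 and 524 in control skin, and its intron reads overlapped (741 to 1675 against 1064 to 1457). Mature microRNAs were not measured in these libraries.

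Genes of RNA processing itself were few among the members. In the list of SR proteins and splicing regulators, 44 genes were eligible, 3 were higher in every Nampt-cKO library and 2 lower, a share near the background of 6.37% and 6.22%. Mbnl1, a splicing factor whose activity is lost in myotonic dystrophy, had a share of 45.7% ± 6.56 in Nampt-cKO skin and 30.8% ± 2.69 in control skin. Only 21.8% of its intron reads were unique, and its difference was 6.93 points with unique reads and 14.9 with all reads. Rsrc1, an SR-related protein, had 30.6% ± 1.38 and 22.4% ± 4.99. The difference of Rsrc1 was 4.77 points with unique reads and 8.22 with all reads, and its unique shares were not separated between the groups. Drosha and Mettl3 are in none of the lists and were picked after their values were seen. Drosha, the nuclease that cuts primary microRNAs, had 585, 639, 673 and 454 intron reads in Nampt-cKO skin, against 253, 344, 308 and 232 in control skin. Mettl3, the catalytic subunit of the N6-methyladenosine writer, had 1030, 732, 637 and 565 exon reads in Nampt-cKO skin, against 959, 1372, 1116 and 1290 in control skin, with an intron change of 0.05 ± 0.16.

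No member came from the lists of core spliceosome, hnRNP, minor spliceosome, nonsense-mediated decay or RNA exosome genes. Exon reads of 45 of 65 core spliceosome genes and 22 of 28 hnRNP genes were higher in Nampt-cKO skin, with 1 lower in each list, beside 23.8% higher and 22.0% lower among all genes tested. Among the eligible core spliceosome and hnRNP genes none had a share higher in every Nampt-cKO library. A lower one was found in 6 of 64 core spliceosome genes and 3 of 28 hnRNP genes. Of 13 eligible nonsense-mediated decay genes, 2 were higher and 0 lower in every Nampt-cKO library. These counts were 0 and 1 of 7 minor spliceosome genes and 0 and 0 of 17 RNA exosome genes, beside 6.37% and 6.22% of all eligible genes. In the list of genes with a known detained or retained intron, 2 of 25 were higher and 2 were lower in every Nampt-cKO library, and none was a member.

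The DNA damage response list gave 1 member. Ercc1, a nuclease subunit of nucleotide excision repair, had 615, 864, 1260 and 868 intron reads in Nampt-cKO skin, against 337, 476, 368 and 392 in control skin, and its exon reads changed by 0.51 ± 0.11. Spidr and Mus81 are repair genes outside the list and were picked after their values were seen. Spidr, a scaffold of homologous recombination, had 1182, 1087, 1514 and 1674 intron reads in Nampt-cKO skin, against 379, 544, 522 and 533 in control skin. It overlaps Cebpd, which had 16997 to 28117 exon reads in Nampt-cKO skin, against 3372 to 4766 in control skin, by 322 bases. Mus81, a structure-specific nuclease, had 157, 127, 199 and 93 intron reads, against 37, 67, 64 and 82. Of the 33 eligible genes of this list 1 was higher in every Nampt-cKO library and 2 were lower, Trp53 with 18.3% ± 0.528 in Nampt-cKO skin and 24.4% ± 1.20 in control skin, and Lig1 with 10.1% ± 1.90 and 16.5% ± 2.26. Of 23 eligible genes of NAD metabolism none was separated in either direction. Of 18 eligible genes of the IL-36, IL-1 and NF-kB list, 3 were higher in every Nampt-cKO library and 4 were lower. Nfkbia, the inhibitor of NF-kB, stood just outside the members at rank 152.

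Overlapping genes were more frequent among the members. The body of 77 members (51.3%) overlapped another gene of the table, against 36.2% of the other eligible genes, and the strand of the library was not given in the sources used here, so reads of overlapping genes cannot be told apart. Camk2b, a subunit of calcium/calmodulin-dependent kinase II, holds Gm40812 inside its body. Gm40812 had 2302, 725, 616 and 212 exon reads in Nampt-cKO skin, against 64, 215, 139 and 181 in control skin. The intron reads entered for Gm40812 were 5690, 1391, 1115 and 240, against 13, 130, 88 and 112. The intron reads of Camk2b were 3869, 1356, 1319 and 671, against 212, 796, 550 and 505. Nampt-cKO replicate 1 was by far the highest for both genes, and replicate 4 was the lowest Nampt-cKO library for both. Abi1 overlapped Pdss1 by 278 bases. Pdss1 had 1628, 827, 964 and 1129 exon reads in Nampt-cKO skin, against 332, 457, 261 and 359 in control skin. The intron reads of Pdss1 were 1050, 489, 621 and 784, against 234, 359, 212 and 308. Sfi1, a centrosomal protein, and Dleu2 each hold a gene whose exon reads were called, Gm33862 (log2 -0.56) and Kcnrg (log2 1.56). Trpv6, Il34 and Vmp1 hold Gm38795, Gm15894 and LOC108167917, with changes of -1.70, -1.67 and 2.04 in exon reads. The part of overlapping genes in the shares was not tested.

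The members were longer than other genes. The median gene body was 54817 bases in the members and 25212 in the other eligible genes, and the median number of annotated exons was 16 and 14. Their control share was also higher, 14.9% against 8.09% at the median. The ranking was made on percentage points. A transcript of the class retained intron was annotated in GENCODE for 93 of 146 members (63.7%) and for 63.9% of the other eligible genes. The members lay on all autosomes and on the X chromosome.

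The Nampt-cKO libraries did not contribute equally. Nampt-cKO replicate 1 gave the lowest Nampt-cKO share in 83 of the 150 members and the highest in 10. Replicates 3 and 4 gave the highest in 53 and 52. The other eligible genes had a similar tilt, with replicates 3 and 4 highest of all 8 libraries in 1842 and 2399 genes, against 523 to 1303 for a control library. These 2 replicates also had the largest mitochondrial percentages, 6.82 and 8.18%, and the part of these in the shares was not tested. Leaving out any 1 library makes the separation easier to meet. The number of genes with a share higher in every Nampt-cKO library was then 701 to 1146 in place of 598. The 1146 came without Nampt-cKO replicate 1.

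At the rank threshold the differences ran together. Mfhas1, Sema4d and Tnc, the last members, differed by 5.54, 5.49 and 5.49 points. Man1a, Nfkbia and Nit1, the first genes outside, differed by 5.43, 5.34 and 5.33 points. The genes with the smallest intron change among the members were Zscan18, Tmem260 and Cryzl1 (log2 -0.01, 0.03 and -0.03), and all 3 had fewer exon reads in Nampt-cKO skin, with changes of -0.76, -0.76 and -0.41.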

How the data were processed

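RNA from whole skin of 4 Nampt-cKO and 4 control mice was poly-A selected and sequenced on an Illumina NovaSeq by a service provider for the authors. The deposited table holds read counts per gene, split into exon, intron and exon-exon reads and given as total and as unique reads, with annotation columns (other), and the builds named in the submitters' processing notes are GRCm38 and mm10. No source used here names the aligner or the counter. Gene reads equalled exon plus intron reads in all 36333 rows. The deposited RPKM values and the authors' own columns of fold changes and p-values were not used.

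Exon reads (TMM) and intron reads (scaled to exon library sizes) were tested by edgeR 4.0.16 quasi-likelihood fits after filterByExpr, condition only, and the ratio of intron to exon reads by a library-adjusted interaction term in 1 fit. On simulated data 32.4% of the genes called by the planned diffSpliceDGE test were false, against 5.15% for this fit, and diffSpliceDGE was replaced. The fit recovered 64.5% of the changed genes, against 92% with diffSpliceDGE. The simulated exon and intron reads were drawn independently. Sequences came from GENCODE M21 (GRCm38) and RefSeq. Tests assume that the 4 mice of a group are independent; no label names litters or batches. The smallest mean chi-square per gene between libraries of 1 group was 9.44, so no library was a copy of another. The members, gene lists and naming rule (leading 20, most reads, list members, extremes, threshold neighbours, nested genes, Nampt) were chosen with earlier results of these data known. Alternatives used unique reads, other minimums (200 and 1000 gene reads), rankings, normalizations, DESeq2 1.42.0, limma 3.58.1, a replicate block, and each library left out.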

Additional observations from a re-analysis of the deposited data

Results flagged for a closer look

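Mitochondrial reads were higher than in controls, with a mean of 6.65% of gene reads in Nampt-cKO skin, against 2.84% in control skin. The eligible genes included 15 mitochondrial features, and none of them was a member. Among 88 groups of 4 shares of named genes, 5 held a library that stood apart from the others of its group, and chance alone gives such a library in about 1 group of 20. Mbnl1 had a share of 35.9% in Nampt-cKO replicate 1 and 48.2 to 50.03% in the other Nampt-cKO libraries. Mfhas1 had 12.6% in Nampt-cKO replicate 4 and 7.87 to 8.38% in the others. Man1a had 13.0% in Nampt-cKO replicate 3 and 16.7 to 16.9% in the others. Ccdc171 had 73.8% in control replicate 4 and 64.1 to 65.7% in the other controls. Ercc1 had 24.3% in control replicate 3 and 28.6 to 29.5% in the other controls.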

How the results depend on the processing

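The median difference over the members was 8.43 points with unique reads and 8.49 to 9.58 with 1 library left out, and members chosen with a minimum of 200 or 1000 gene reads gave 12.6 and 6.09. Of the 150 members, 129 were chosen again with unique reads, 108 to 136 with 1 library left out, 94 and 86 with a minimum of 200 and 1000 gene reads, and 62 when ranked by the difference of logit shares. Genes with a share higher in every Nampt-cKO library numbered 701 to 1146 with 1 library left out and 333 among genes that overlap no other gene. The library-wide difference turned round, to -0.42 points, without mitochondrial features, an alternative chosen after seeing the data. Genes called for the intron share numbered 342, and 576 with diffSpliceDGE, the test first planned, 257 with limma, and 116 to 685 with 1 library left out: 685 without Nampt-cKO replicate 1, 197 without replicate 3, and 116, 158, 143 and 193 without control replicates 1, 2, 3 and 4. With unique reads the difference turned round for Sntb1 (-4.33) and LOC108168101 (-0.18).

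Deviations of the log ratio of intron to exon reads correlated by 0.02, -0.02, -0.07 and 0.05 between libraries with the same replicate number. These values show no pairing in that ratio and cannot exclude a pairing by litter or handling. With the replicate block 343 genes were called for the intron share, 7516 for exon reads (7905 without it) and 4153 for intron reads (4322 without it). With 1 library left out these 2 counts were 6526 to 9009 and 3148 to 5295. Each member needed 500 gene reads, so genes of low level were not described.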
